A study of Mus musculus with 4 samples.

Results

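The interleukin-12 family and related dendritic cell cytokines were read in splenic dendritic cells of the mouse as 8 genes, Il12a, Il12b, Il23a, Il27, Ebi3, Il15, Il6 and Il10. Members were the probe sets of the array whose only gene symbol in the platform annotation was one of these names. This gave 8 probe sets of 7 genes among the 45037 probe sets that are not controls, with a pair of probe sets for Il12b and none for Il27. CD8α+ SPDCs, the labels' name for CD8α+ dendritic cells of the spleen, were compared with CD8α- SPDCs, each with 2 arrays and both from C57BL/6 mice. No stimulus, genetic change, age or sorting gate is given in the sources used here, and whether the replicates stand for separate animals or pools is not given either. The p-values below therefore cover only the spread between arrays, which may be technical. They and the standard errors draw in part on the spread of all probe sets fitted together.

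Cytokines of the interleukin-12 family are heterodimers that share subunits. The p40 chain, encoded by Il12b, pairs with p35 (Il12a) to form interleukin-12 and with p19 (Il23a) to form interleukin-23, while the p28 chain (Il27) pairs with Ebi3 to form interleukin-27. Interleukin-12 drives interferon gamma production by T and natural killer (NK) cells, and CD8α+ dendritic cells are known as a source of it after microbial stimulation. Interleukin-15 sustains NK cells and memory CD8 T cells, mostly while held on the surface of the producing cell by its receptor chain Il15ra. Interleukin-6 is an inflammatory cytokine acting through gp130 (Il6st), and interleukin-10 restrains dendritic cells and macrophages.

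The promoters of Il12b and Il6 are shown because these were the cytokine genes above background on all 4 arrays whose groups did not overlap, in opposite directions. Each sequence is the 250 bases before the annotated start of transcription, from RefSeq on GRCm38.p6, plus strand, at chr11:44399813-44400062 for Il12b and chr5:30012864-30013113 for Il6. Capitals mark matches to the motifs searched, described after the sequences.
Il12b: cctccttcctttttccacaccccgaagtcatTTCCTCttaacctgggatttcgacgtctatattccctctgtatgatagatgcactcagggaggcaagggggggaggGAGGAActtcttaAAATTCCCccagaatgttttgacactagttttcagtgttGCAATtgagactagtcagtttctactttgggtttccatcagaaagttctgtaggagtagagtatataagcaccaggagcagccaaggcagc
Il6: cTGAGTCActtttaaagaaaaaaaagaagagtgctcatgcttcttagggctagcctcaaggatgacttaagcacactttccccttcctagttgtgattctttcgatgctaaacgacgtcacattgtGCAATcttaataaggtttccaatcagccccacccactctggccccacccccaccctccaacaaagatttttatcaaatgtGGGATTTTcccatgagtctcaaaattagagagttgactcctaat

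Motifs were searched on both strands, 6 in all. The NF-κB-like motif was GGGANTTT, chosen after these promoters had been read, so a match to it is no finding. The core of the C/EBP factors was GCAAT. For AP-1 it was TGANTCA, and for the myeloid factor PU.1 it was GAGGAA. The element of interferon regulatory factors (IRF) was AANNGAAA, and the TATA-like motif was TATAAA. Il12b held the NF-κB-like letters on the minus strand, starting 130 bases before the start of transcription, and the C/EBP core at 91 bases. It also held the PU.1 core at 219 bases on the minus strand and at 143 bases on the plus strand. Il6 held the NF-κB-like letters at 44 bases, the C/EBP core at 124 bases and the AP-1 letters, which read alike on both strands, at 249 bases. No matches overlapped another motif in these windows. Of all 32851 promoter windows of this length, 3.95% held the NF-κB-like letters, 23.1% the C/EBP core, 23.3% the PU.1 core, 6.75% AP-1, 21.3% the IRF element and 12.4% the TATA-like letters. Promoter entries were found for 4 of the 8 genes. The upstream start of Il12a held 1 C/EBP core at 156 bases on the minus strand, its other start held no match, and Ebi3 held 1 PU.1 core at 176 bases. A match describes the letters only.

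The arrays differed in overall brightness and quality. Median deposited signals were 26.6 and 22.9 on CD8α+ replicates 1 and 2, against 35.1 and 17.4 on CD8α- replicates 1 and 2. The 3′ to 5′ signal ratio of the Gapdh controls was 1.53 and 1.56 in CD8α+ cells, and 2.02 and 10.7 in CD8α- cells, the last being replicate 2. That of the Actb controls was 1.69 and 1.62 in CD8α+ cells, and 1.67 and 0.759 in CD8α- cells. The controls thus disagreed on CD8α- replicate 2, and the RNA quality of that array is not settled by them. Log2 signals correlated at r = 0.955 across probe sets between the CD8α+ arrays and at r = 0.835 between the CD8α- arrays. Probe sets are not independent replicates. Arrays were therefore quantile normalized, and the values of Ebi3, Il15, Il6, Il10ra and Stat3 are also given without CD8α- replicate 2. Cd8a, which defines the populations, had normalized signals of 2014 and 2335 in CD8α+ cells against 15.2 and 27.0 in CD8α- cells (its brightest probe set of 5). The cDC1 lineage is the conventional type 1 lineage that CD8α+ cells belong to. Of its 10 markers tested, 9 were higher in CD8α+ cells, and Batf3 was not. The level was an unadjusted p under 0.05, passed by 7.75% of all tested probe sets as higher and by 7.79% as lower. Cd8a was among the 9, and as it defines the populations its direction was given in advance. Of the 5 cDC2 markers tested, of the type 2 lineage, 4 were lower at that level. Sirpa was not, with a log2 difference of -1.81 ± 0.84 and groups that overlapped on the deposited scale. Esam, Mgl2 and Itgam were too dim to test. Esam was above background on 1 array of each population, and Mgl2 and Itgam were not above it on any array.

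Background on each array was taken as its brightest Bacillus control, which read 33.6 and 20.1 on the CD8α+ arrays and 39.6 and 23.6 on the CD8α- arrays in deposited signal. Both Il12b probe sets, Ebi3 and Il6 exceeded it on all 4 arrays. Il15 and Il10 exceeded it on 3 arrays, and Il12a and Il23a on 0. Only probe sets with a mean normalized signal of at least 22.97, the median, were tested. This kept 6 of the 8 cytokine probe sets and 22519 probe sets in all, and left out Il12a and Il23a.

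**Figure D1:**
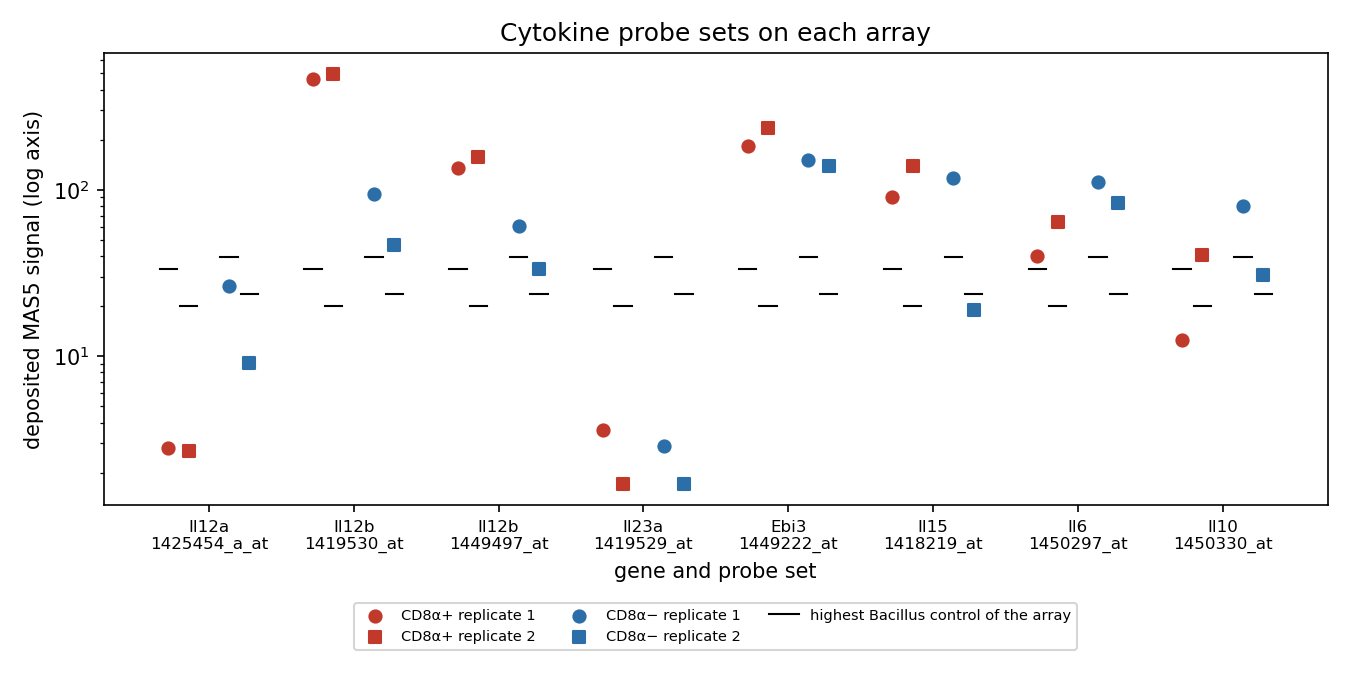
Deposited MAS5 signal (log axis) of the 8 cytokine probe sets on each of the 4 arrays, with CD8α+ arrays in red and CD8α- arrays in blue; circles are replicate 1, squares replicate 2, and black bars the brightest Bacillus control of each array. Both Il12b probe sets are brighter on the CD8α+ arrays (463.2 and 499.6 against 94.9 and 46.6 on the brighter one), Il6 is dimmer on them, and Il12a and Il23a lie below the control on every array.

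No cytokine probe set passed the threshold over all probe sets. With limma 0 of 6 had an adjusted p under 0.05, as did 0 of the 22519 tested (0%), where the lowest adjusted p was 0.1155. At an unadjusted p under 0.05 there were 3 of the 6 cytokine probe sets, both of Il12b higher in CD8α+ cells and that of Il6 lower. The background at that level was 15.5% of all tested probe sets, 7.75% higher and 7.79% lower. The groups did not overlap for 4 of the 6, the same 3 and Il10, against 52.3% of all tested (26.1% higher and 26.2% lower). The median difference over the 6 was 0.14 on the log2 scale and over all tested probe sets 0.01. The count of 3 became 2 on the deposited scale, 4 with a common trimmed mean and 2 with arrays centred on their medians. Over all tested probe sets the counts there were 2764, 5062 and 6873, against 3500 after quantile normalization. An exact permutation test of 2 arrays against 2 cannot give a two-sided p below 0.33 and was not used.

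Il12b, the p40 chain, was brighter in CD8α+ cells. On its brighter probe set the deposited signals were 463.2 and 499.6 in CD8α+ cells, against 94.9 and 46.6 in CD8α- cells. Both CD8α+ arrays lay above both CD8α- arrays, and after normalization the replicates nearly coincided. The normalized signals were 337 and 345 in CD8α+ cells and 83.9 and 84.7 in CD8α- cells. Within a population the arrays differed by 0.04 in CD8α+ cells and 0.01 in CD8α- cells on the log2 scale, while the array pairs across populations differed by 1.99 to 2.04. The fitted log2 difference was 2.02 ± 0.30 (standard error, n = 2 arrays per group), a 4.05-fold higher signal in CD8α+ cells, with a 95% interval of 1.21 to 2.82. The limma adjusted p was 0.1306. By p this probe set ranked 301 of 22519. Leaving out each array in turn gave 2.00 to 2.03. Among the 6 cytokine probe sets this was the largest fitted difference, but without CD8α+ replicate 2 that of Il10 was larger in size, at -2.37.

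The other Il12b probe set was dimmer and pointed the same way. Its deposited signals were 136 and 158.2 in CD8α+ cells and 60.7 and 33.3 in CD8α- cells, without overlap. The normalized signals were 107 and 117 in CD8α+ cells against 47.9 and 54.5 in CD8α- cells. The log2 difference was 1.13 ± 0.31, or 2.18-fold (95% interval 0.29 to 1.96, limma adjusted p = 0.2419). The probe sets of this gene thus differed in size and not in direction. Both sizes depend on how arrays are matched. Without matching, on the deposited scale, the median of all tested probe sets stood 0.63 higher in CD8α+ cells, and the Il12b differences were 2.85 and 1.71. Relative to that median they were 2.22 and 1.08. Cells of a type being fewer and each cell holding less RNA cannot be told apart in RNA from a population.

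The partner chains of p40 were not seen above background. Il12a, the p35 chain of interleukin-12, had deposited signals of 2.8 and 2.7 in CD8α+ cells and 26.5 and 9.1 in CD8α- cells. The CD8α- arrays were the brighter ones, opposite to Il12b, but each value lay below its array's brightest Bacillus control, so no fold is given. Fitted with no filter on dim probe sets, Il12a gave a log2 difference of -1.19 ± 0.20 with both CD8α+ arrays at the floor (limma adjusted p = 0.2076). Values at the floor have no order, so the spread of the CD8α+ arrays was 0 by construction and the size of that difference is not known. Il23a, the p19 chain of interleukin-23, read 3.6 and 1.7 in CD8α+ cells and 2.9 and 1.7 in CD8α- cells, at the floor on all 4 arrays after normalization. A signal below background is not evidence that the transcript was absent.

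Ebi3, the chain that joins p28 in interleukin-27, was above background everywhere and had no settled direction. Its deposited signals were 182.2 and 234.3 in CD8α+ cells and 152 and 138.8 in CD8α- cells, so CD8α+ cells were brighter before matching. After normalization the signals were 139 and 166 in CD8α+ cells against 141 and 296 in CD8α- cells, and the groups overlapped. The log2 difference was -0.43 ± 0.48 (95% interval -1.70 to 0.83, limma adjusted p = 0.674). It turned to 0.51 on the deposited scale, to 0.51 with arrays centred on their medians and to 0.10 without CD8α- replicate 2.

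Il15 overlapped between the populations, with its CD8α- arrays far apart. Its deposited signals were 90.6 and 139.3 in CD8α+ cells, against 117.3 and 19.1 in CD8α- cells. CD8α- replicate 1 lay between the CD8α+ arrays. CD8α- replicate 2, the array on which the Gapdh and Actb ratios disagreed, lay below its background. Normalized signals were 74.2 and 105 in CD8α+ cells and 105 and 27.2 in CD8α- cells. The log2 difference was 0.72 ± 0.74 (95% interval -1.25 to 2.69, limma adjusted p = 0.6502). Leaving out CD8α- replicate 2 gave -0.26, and leaving out CD8α- replicate 1 gave 1.70. The part of RNA quality in this was not tested.

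Il6 was lower in CD8α+ cells. Its deposited signals were 40.3 and 64.5 in CD8α+ cells and 112.1 and 83.4 in CD8α- cells, and the groups did not overlap. After normalization the signals were 36.6 and 56.0 in CD8α+ cells, against 100 and 169 in CD8α- cells. The array pairs across populations differed by -2.21 to -0.84, while replicates differed by 0.61 in CD8α+ cells and 0.75 in CD8α- cells on the log2 scale. The log2 difference was -1.52 ± 0.44, a 2.87-fold lower signal in CD8α+ cells (95% interval -2.70 to -0.34, limma adjusted p = 0.2543). On the deposited scale it was -0.92, and -1.55 relative to the median of all tested probe sets there. The unadjusted limma p of Il6 was 0.0222 after quantile normalization, but 0.1435 on the deposited scale and 0.1069 with median centring. Leaving out each array gave -1.90 to -1.15, the smallest size without CD8α- replicate 2.

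Il10 was lower on average in CD8α+ cells, with a wider spread. Its deposited signals were 12.5 and 40.7 in CD8α+ cells and 79.5 and 30.7 in CD8α- cells, where CD8α+ replicate 2 exceeded CD8α- replicate 2. The normalized signals, 11.1 and 39.7 in CD8α+ cells against 67.7 and 48.8 in CD8α- cells, did not overlap. CD8α+ replicate 1 was below background, so no fold is given. The log2 difference was -1.45 ± 0.70 (95% interval -3.32 to 0.42, limma adjusted p = 0.3956). Its size depended on 1 array, at -0.53 with CD8α+ replicate 1 left out and -2.37 with CD8α+ replicate 2 left out.

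**Figure D2:**
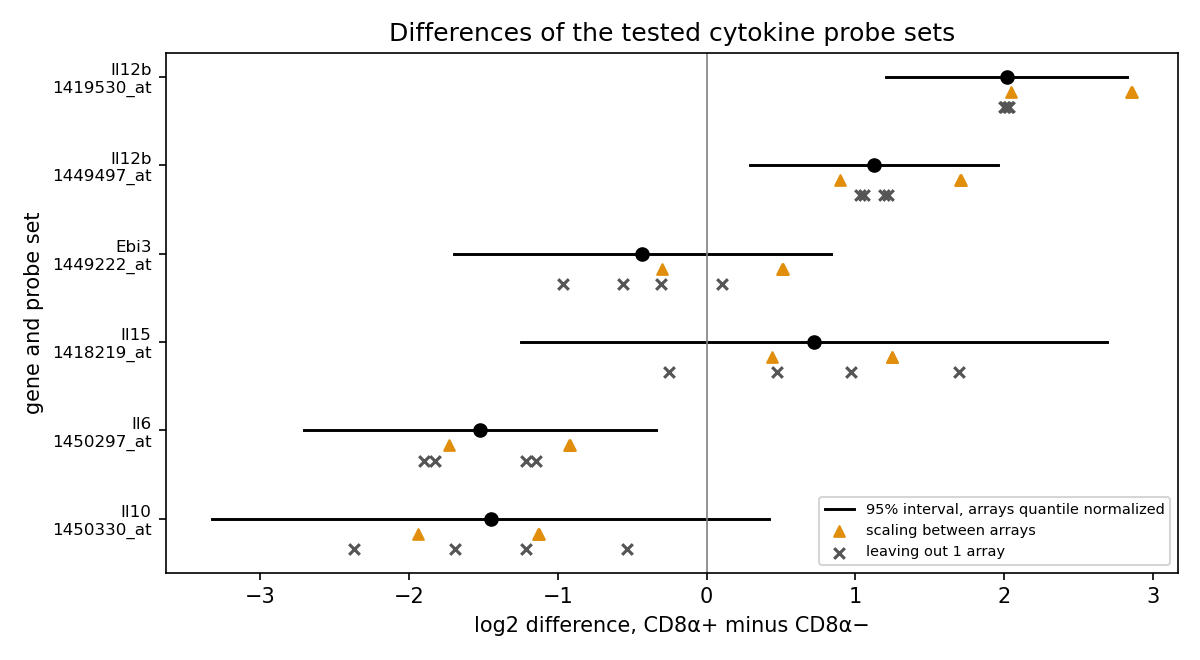
Log2 difference, CD8α+ minus CD8α-, of the 6 tested cytokine probe sets; black points and lines are the fitted values with 95% intervals (2 arrays per group), triangles the 3 other scalings and crosses the values with 1 array left out. All points, triangles and crosses lie above 0 for both Il12b probe sets and below 0 for Il6 and Il10. For Ebi3 and Il15 they lie on both sides. The 95% interval of Il10 crosses 0 and ends at 0.42.

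Markers of other cells that can make these cytokines were counted at an unadjusted p under 0.05, a level passed by 7.75% of all tested probe sets as higher in CD8α+ cells and by 7.79% as lower. Of the monocyte and macrophage markers, 8 of 11 were on the array under a single symbol, and their summed normalized signal was 1394 and 1493 in CD8α+ cells against 2317 and 2881 in CD8α- cells. Of the 6 tested, 3 were lower and 1, Vcam1, was higher. None of the 8 was below background on every array, but Fcgr1 and C1qa exceeded it on CD8α- replicate 2 only. Cd14, the brightest of the 8, gave 727 and 757 in CD8α+ cells against 1212 and 1388 in CD8α- cells. Cd14 did not pass, and its deposited signals overlapped between the populations. The B cell markers (5 of 6 on the array) summed to 1012 and 1118 in CD8α+ cells and 2117 and 2781 in CD8α- cells. Ighm made up most of these sums, with 826 and 902 in CD8α+ cells against 1971 and 2549 in CD8α- cells. Of the 3 tested, Ighm was lower and Ms4a1 higher, and Pax5 was not above background on any array. The neutrophil markers (4 of 6) summed to 6404 and 6988 in CD8α+ cells and 12710 and 9231 in CD8α- cells, with 2 of 4, S100a8 and Mpo, lower. Nearly all of these sums came from S100a8 and S100a9. The T cell markers (4 of 6) summed to 405 and 596 in CD8α+ cells and 432 and 375 in CD8α- cells, with 0 of 4 lower or higher. Markers of plasmacytoid dendritic cells (6 of 6) summed to 992 and 1132 in CD8α+ cells and 1577 and 2280 in CD8α- cells, with 1 of 6 lower. That was Tcf4, which made up most of these sums, with 650 and 762 in CD8α+ cells against 1198 and 1808 in CD8α- cells. Bst2 and Klk1 were dimmer in CD8α+ cells after normalization, Siglech and Ly6d overlapped, and Ccr9 was brighter, none of them passing. The part of these cells in the Il6 and Il10 differences was not tested.

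The receptors and signalling genes of these cytokines were taken as a list of 22 genes, of which 19 were on the array under a single symbol and 14 were tested. At an unadjusted p under 0.05, 1 was higher and 3 were lower in CD8α+ cells, and 10 did not pass, beside 7.75% higher and 7.79% lower of all tested probe sets. A single higher gene of 14 is near that background. The adjusted threshold was passed by 0 of 14, and the median difference was -0.66 against 0.01 for all tested probe sets. On the deposited scale 2 were higher and 1 was lower, and with median centring 3 were higher and 1 was lower. Of all probe sets at that level, 2310 of 2764 and 6018 of 6873 were higher there. The balance of higher and lower genes thus depended on how arrays were matched.

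The receptor gene higher in CD8α+ cells was Il15ra, which presents interleukin-15 to neighbouring cells. Its brighter probe set had deposited signals of 71.2 and 59.9 in CD8α+ cells and 4.1 and 5.8 in CD8α- cells, without overlap. The CD8α- arrays were below background, so the signal was at least 1.8-fold higher in CD8α+ cells. The fitted log2 difference was 2.80 ± 0.34 (limma adjusted p = 0.1155), with 1 CD8α- array at the floor. The other Il15ra probe set read 38.4 and 40.4 in CD8α+ cells and 26.2 and 18 in CD8α- cells, where both CD8α- values were again below background, so the signal was at least 1.19-fold higher in CD8α+ cells (limma adjusted p = 0.3687). Il15 itself did not share that direction on all arrays.

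Il2rb, the beta chain through which interleukin-15 signals, had deposited signals of 20.2 and 27.8 in CD8α+ cells and 133.7 and 82.1 in CD8α- cells. The groups did not overlap, and the log2 difference was -2.60 ± 0.40 (limma adjusted p = 0.1332). CD8α+ replicate 1 was below background and no fold is given. Il2rb is also an NK cell gene, and the NK cell markers (7 of 8 on the array) summed to 700 and 844 in CD8α+ cells against 2357 and 1340 in CD8α- cells. Of these 7, 3 were lower and 0 higher at an unadjusted p under 0.05, beside 7.79% lower and 7.75% higher of all tested probe sets. Gzma alone gave 1555 and 274 in CD8α- cells, so the sum of CD8α- replicate 1 was mostly that gene. Klrk1 was brighter on both CD8α+ arrays without passing that level, and Prf1 overlapped after normalization. The part of NK cells in the Il2rb difference was not tested.

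Il12rb1 and Il12rb2, the chains of the interleukin-12 receptor, were too dim to test. Il12rb1 read 8.9 and 1.7 in CD8α+ cells and 26.9 and 1.8 in CD8α- cells, below background on all 4 arrays. Il12rb2 read 17.8 and 5.9 in CD8α+ cells and 10 and 23.7 in CD8α- cells, and exceeded background on CD8α- replicate 2 only, where background was 23.6. Il10ra, the ligand-binding chain of the interleukin-10 receptor, read 138.1 and 153.2 in CD8α+ cells and 123.7 and 124.6 in CD8α- cells. Its log2 difference of -0.63 ± 0.51 (limma adjusted p = 0.568) turned to 0.23 on the deposited scale and with median centring. The Il10ra difference was near 0, at -0.01, with CD8α- replicate 2 left out, and -1.25 with CD8α- replicate 1 left out. Its size thus rests on CD8α- replicate 2, the array with the Gapdh ratio of 10.7 and the Actb ratio of 0.759.

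Among the signalling genes, Socs3, a feedback inhibitor of gp130 and its STAT3 signal, read 111.4 and 144.4 in CD8α+ cells and 293.1 and 260.3 in CD8α- cells. The groups did not overlap, and the log2 difference was -1.98 ± 0.47 (limma adjusted p = 0.2016), or -1.12 on the deposited scale. The other 2 Socs3 probe sets, named _x_at for possible cross-hybridization, were also negative, and over all 3 the differences ran from -1.98 to -0.26. Stat3, the main mediator of interleukin-6 and interleukin-10 signals, gave -1.14 ± 0.49 on its brightest probe set (limma adjusted p = 0.3618). That became -0.22 on the deposited scale and -0.56 once CD8α- replicate 2 was left out. Over its 3 tested probe sets the differences ran from -1.14 to -1.03. Those at -1.03 and -1.09 had unadjusted limma p of 0.04308 and 0.03457, and their deposited signals overlapped between the populations. Tyk2, a kinase of the interleukin-12 receptor, gave 0.96 ± 0.38 (limma adjusted p = 0.3331), and 1.81 on the deposited scale. The transcription factor Stat5b gave -0.97 ± 0.36 (limma adjusted p = 0.3183), but 0.01 on the deposited scale and with median centring.

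Transcription factors known to act on these cytokine genes formed a list of 20, of which 18 were on the array and tested. At an unadjusted p under 0.05, 1 was higher and 5 were lower in CD8α+ cells, and 12 did not pass, beside the same 7.75% and 7.79% of all tested probe sets. A single higher gene of 18 is near that background too. The adjusted threshold was passed by 0 of 18, and the median difference was -0.21. Unmatched arrays gave 1 higher and 1 lower factor, where 2310 of the 2764 probe sets at that level were higher. Median centring gave 4 higher and 2 lower, where 6018 of 6873 were higher, so these counts moved with all probe sets.

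Irf8, which acts on the Il12b promoter and is needed for the cDC1 lineage, was the factor that was higher. Its deposited signals were 1845 and 2041 in CD8α+ cells, against 586.5 and 184.7 in CD8α- cells. The groups were apart on both of its probe sets, with log2 differences of 1.61 ± 0.35 and 2.34 ± 0.41 (limma adjusted p = 0.1859 and 0.146). The first was 2.56 on the deposited scale. Batf3, another factor of that lineage, read 145.9 and 193.1 in CD8α+ cells and 155.8 and 78.3 in CD8α- cells, and its log2 difference of -0.27 ± 0.32 (limma adjusted p = 0.6976) turned to 0.60 on the deposited scale.

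Of the 5 lower factors, Cebpb, a regulator of Il6 and other inflammatory genes, showed the largest size. It read 25.5 and 31.6 in CD8α+ cells against 266.3 and 173.9 in CD8α- cells. The log2 difference was -3.45 ± 0.39 (limma adjusted p = 0.1155). CD8α+ replicate 1 was below background and no fold is given. Batf, an AP-1 family factor, read 104.1 and 76.1 in CD8α+ cells and 297.3 and 109.2 in CD8α- cells, with a difference of -1.79 ± 0.34 (limma adjusted p = 0.1597). Irf4, a factor of the cDC2 lineage, gave -1.45 ± 0.37 (limma adjusted p = 0.2215), Relb, an NF-κB subunit, -1.03 ± 0.32 (0.2716) and the interferon regulatory factor Irf7 -0.90 ± 0.33 (0.3075). On the deposited scale these were -0.53, -0.07 and -0.12, and Batf was -1.02. The deposited signals of Irf4, Relb and Irf7 overlapped between the populations.

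**Figure D3:**
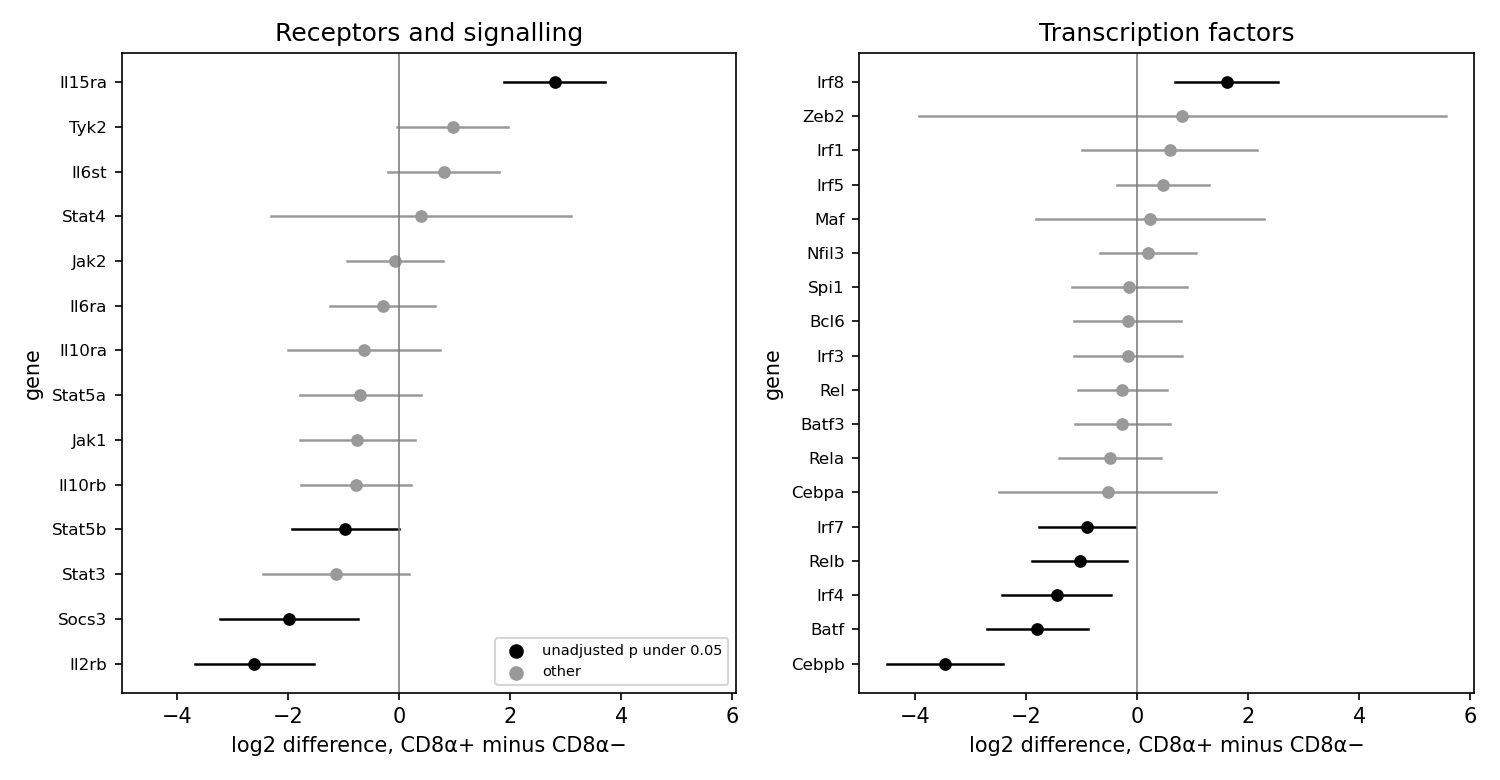
Log2 difference, CD8α+ minus CD8α-, with 95% intervals (2 arrays per group) for the 14 tested receptor and signalling genes and the 18 tested transcription factors; black marks an unadjusted limma p under 0.05. Il15ra and Irf8 are the black points above 0, and Il2rb and Cebpb lie lowest in their lists.

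The genes whose profile over the 4 arrays was nearest to that of Il12b were found among 10532 tested genes by the root mean square distance between log2 signals, each centred on its own mean. The 5 nearest were Procr at a distance of 0.05, Havcr1 and Ccser1 at 0.07, Gpr34 at 0.09 and Rab13 at 0.10. Havcr1 and Rab13 were below background on both CD8α- arrays, so their distances and places in this order are uncertain. Procr, the endothelial protein C receptor, read 1809 and 2017 in CD8α+ cells and 388.4 and 159.6 in CD8α- cells. Its log2 difference was 2.00 ± 0.31, beside 2.02 for Il12b. Havcr1, the phosphatidylserine receptor Tim-1, read 113.4 and 107.4 in CD8α+ cells and 30.2 and 13.8 in CD8α- cells, at least 2.78-fold higher in CD8α+ cells. Gpr34, a lysophosphatidylserine receptor, read 287.4 and 277.5 in CD8α+ cells and 59.4 and 32.9 in CD8α- cells. Likeness over 4 arrays is a description, since any gene with close replicates and a similar difference is near.

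**Figure D4:**
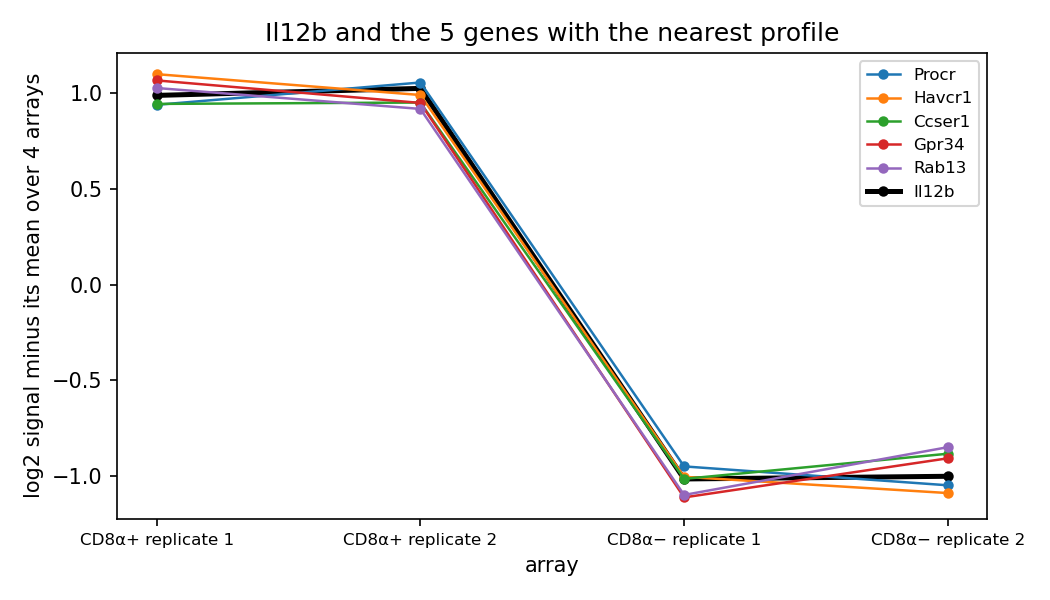
Log2 normalized signal of Il12b (black) and of Procr, Havcr1, Ccser1, Gpr34 and Rab13 on each of the 4 arrays, minus each gene's mean over them. All 6 genes lie about 1 log2 unit above their mean on both CD8α+ arrays and about 1 below it on both CD8α- arrays, where Havcr1 and Rab13 are below background.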

How the data were processed

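RNA of CD8α+ and CD8α- spleen dendritic cells was measured on Affymetrix Murine Genome arrays. The authors deposited linear MAS5 intensity values, 1 for each probe set on each array, per the submitters' processing notes, with no detection calls and no stated scaling target. The RNA preparation differs between sources: the series' design text names RNeasy, Oligotex and Ovation cDNA, and the labels' protocols name Trizol and cRNA. Names came from the platform annotation: of 45037, 34945 had 1 symbol, 932 several and 9160 none. Log2 signals of the 4 arrays were quantile normalized, because the deposited arrays were not on 1 scale, then raised to a floor of 6.987, the 25th percentile. Probe sets with a mean at or above 22.97 were fitted together in limma 3.58.1 (R 4.3.3, lmFit and eBayes, two-sided, 2 residual and 2.481 prior degrees of freedom), with Benjamini-Hochberg adjustment over all of them at 0.05. The limma step alone was tested on simulated log2 values with equal spread in both groups. That test did not cover the normalization, the floor, the filter or an unequal spread. Where no array of a group exceeded background, a fold is given as "at least", against the higher of background and signal. A gene of a list is represented by its brightest tested probe set, leaving out _x_at names where it had another. From each list the 6 genes with the smallest p are named, with Il12rb1, Il12rb2, Il15ra, Il10ra, Irf8 and Batf3. The members and lists were chosen with earlier results of these data known. The number of arrays, 4, limits the precision. Figures were drawn with matplotlib 3.10.9.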

Additional observations from a re-analysis of the deposited data

How the results depend on the processing

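Values were recomputed under 12 alternatives, but Il10, Havcr1 and Rab13 had 11 and Il15ra 10, as they did not pass the filter in the others. No fit had more than 2 arrays a group, and a group of 1 array is assumed to vary like the other. Signals near the Bacillus controls limit Il12a, Il23a, Il10 and Il15. The brighter Il12b probe set was positive under all 12, from 1.83 to 2.86. Among the alternatives with 2 arrays in each group, it passed an adjusted p of 0.05 only with median centring, at 2.86 (adjusted p = 0.03993, limma). With that scaling 406 of all probe sets passed, 362 of them higher in CD8α+ cells. On the deposited scale its limma adjusted p was 0.2984. Leaving out each array gave differences of 2.00 to 2.03. The other Il12b probe set ran from 0.90 to 1.71 and Il6 from -1.90 to -0.92 under 12 alternatives, and Il10 from -2.37 to -0.53 under 11. Ebi3 reversed to 0.51 on the deposited scale and with median centring and to 0.10 without CD8α- replicate 2, and Il15 to -0.26 without that array. Leaving out each array gave -0.97 to 0.10 for Ebi3 and -0.26 to 1.70 for Il15. Batf3 reversed to 0.60 and 0.61, Il10ra to 0.23 and 0.23, and Stat5b to 0.0097 and 0.0116 on the deposited scale and with median centring. Of the 20 other named probe sets 17 kept their direction under each alternative that tested them. The cause was not tested, except that scalings shift all probe sets, by a median of 0.63 on the deposited scale, -0.21 with a common trimmed mean and 0.65 with median centring. Of the calls at unadjusted p, 1746 of 3500 were higher in CD8α+ cells, against 2310 of 2764 on the deposited scale, 1278 of 5062 with a common trimmed mean and 6018 of 6873 with median centring.

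Cytokine probe sets at an unadjusted p under 0.05 numbered 3, and 1 to 5 with each array left out. Over all tested probe sets that level gave 3500, against 6873 with median centring, 6555 with no filter, 2196 with the stricter filter, which tests fewer, and 1172 to 9921 with each array left out. Adjusted calls were 0, against 406 with median centring, 37 with the stricter filter, 60 with an intensity trend and 0 to 3908 with each array left out, the highest without CD8α- replicate 1. With a replicate block there were 14 adjusted calls and 2 cytokine probe sets at the unadjusted level, the dimmer Il12b probe set no longer among them. Deviations of same-numbered arrays correlated at 0.0311 across probe sets, so the numbers are not taken as pairs.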
